A study of Mus musculus with 18 samples.

Results

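The complement cascade was followed through 9 mouse genes in cardiac resident macrophages (CRMs): C4b, C2, Serping1, Cfb, Cfp, C6, Cd55, Cr1l and Cd59a. They were taken by symbol from the gene count table, and all 9 were found among its 55401 Ensembl genes. RNA was measured in 18 SMART-Seq libraries, 3 for each of 6 groups, made from macrophages sorted out of the heart as CCR2- or CCR2+ cells. Young mice, which the sample labels call controls, were female C57BL/6J mice aged 3 months on normal chow, and aged mice were of the same sex, strain and diet and 20 months old. A further 6 libraries came from mice on a high-fat diet (HFD), whose age, sex, strain and length of diet are not given in the sources used here. Cells were gated on CD11b, CX3CR1 and CCR2 from digested left ventricles after perfusion. Each sample was a pool of sorted cells, so fewer cells of a type and less RNA per cell cannot be told apart. No label says which libraries came from the same heart, and p-values measure only the spread between these samples.

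Complement is a chain of plasma proteins that is activated by antibody-bound C1q, by lectins, or by the spontaneous turnover of C3. C2 and C4b build the C3-cleaving enzyme of the classical and lectin pathways, factor B (Cfb) and properdin (Cfp) build and steady that of the alternative pathway, and C6 belongs to the membrane attack complex at the end of the chain. Host cells hold the cascade back with Serping1, a plasma inhibitor of the C1 and lectin proteases, with Cd55, which breaks up the C3-cleaving enzymes, with Cr1l (known as Crry), a rodent cofactor that lets C3b and C4b be cut, and with Cd59a, which blocks the final pore. Most plasma complement is made by the liver, while C1q and properdin are known products of macrophages and other leukocytes.

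The 9 genes lie on 5 chromosomes of GRCm38, in the GENCODE M21 annotation. C4b (chr17:34728380-34743882), Cfb (chr17:34856374-34862518) and C2 (chr17:34862604-34898265) share 169886 bases of the major histocompatibility region, all on the minus strand, and 85 bases separate Cfb from C2. Cd55 (chr1:130439027-130462744) and Cr1l (chr1:195097382-195131586) are on the minus strand of chromosome 1. Serping1 (chr2:84765387-84775444, minus strand) and Cd59a (chr2:104095801-104115354, plus strand) are on chromosome 2, C6 (chr15:4727175-4814967, plus strand) on chromosome 15 and Cfp (chrX:20925454-20931555, minus strand) on the X chromosome. An annotated read-through gene, Gm20547, overlaps Cfb and C2 on the same strand, and 80.7% of the 150-base windows of the longest Cfb transcript and 48.3% of those of C2 also occur in it. Counts of Cfb and C2 therefore depend on how shared reads were assigned, which the methods do not state, although Gm20547 itself was at 0 counts in 15 libraries and reached at most 2.29 CPM. Shared windows made up 8.26% of C4b (with C4a), 5.10% of Cr1l (with Crry-ps), 2.81% of Cd55 (with Cd55b) and none of Cfp, C6, Cd59a and Serping1.

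The RefSeq promoter table on GRCm38 held an entry for 5 of the 9 genes (C6, Cfp, Cd55, Cd59a and Cr1l). The 250 bases before the start of Cfp, Cd55 and Cd59a are shown, because Cfp and Cd59a have the highest and the lowest median level of the 9 genes below and Cd55 was the one of the 5 with GC boxes. Capitals mark every match, on either strand, to GAGGAA (an ETS-type core, as bound by PU.1), the core of an interferon-stimulated response element, TTCNNNGAA (a STAT site), the TATA box TATAAA, which places the start of transcription at some genes, or the GC box GGGCGG, a site of Sp1-type factors.
Cfp promoter (chrX:20931556-20931805, minus strand): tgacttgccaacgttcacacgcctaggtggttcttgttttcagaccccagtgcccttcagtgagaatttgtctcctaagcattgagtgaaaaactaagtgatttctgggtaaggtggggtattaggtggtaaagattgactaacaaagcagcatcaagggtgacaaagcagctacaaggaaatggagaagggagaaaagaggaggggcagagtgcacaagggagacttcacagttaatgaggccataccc
Cd55 promoter (chr1:130462745-130462994, minus strand): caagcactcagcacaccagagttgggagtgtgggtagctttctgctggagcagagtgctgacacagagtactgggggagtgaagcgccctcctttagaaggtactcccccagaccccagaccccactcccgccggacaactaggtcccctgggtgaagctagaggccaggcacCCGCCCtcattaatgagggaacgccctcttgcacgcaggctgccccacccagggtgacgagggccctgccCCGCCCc
Cd59a promoter (chr2:104095551-104095800, plus strand): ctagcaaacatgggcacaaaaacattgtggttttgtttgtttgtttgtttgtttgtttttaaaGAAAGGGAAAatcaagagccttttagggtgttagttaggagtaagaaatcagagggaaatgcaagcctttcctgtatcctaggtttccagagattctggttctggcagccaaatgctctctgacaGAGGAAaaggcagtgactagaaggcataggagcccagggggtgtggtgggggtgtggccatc

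The Cfp stretch held no match to these letters. The Cd55 stretch held 2 GC boxes, which begin 77 and 7 bases before the start. The Cd59a stretch held the interferon response core at 187 bases and GAGGAA at 62 bases before the start, and no matches overlapped. Among 32851 promoters of the same length, 32.7% held GGGCGG, 23.3% GAGGAA, 12.4% TATAAA, 7.02% TTCNNNGAA and 2.98% the interferon response core. A match describes letters only, and its absence says nothing of a factor.

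Total counts ran from 39753911 to 56541280 per library, so that 3 counts, the most that a count of 0 allows, stood for 0.0373 to 0.154 CPM after scaling, counting error only. Levels below are CPM, counts scaled to a common library size with TMM factors, and differences are log2 fold changes with standard errors (SE) from edgeR's quasi-likelihood test, with a gene called where its Benjamini-Hochberg adjusted p is under 0.05 and it differs by more than 2 on the log2 scale. Several libraries stood apart. Library 3 of young and of aged CCR2- CRMs lay between libraries 1 and 2 in 97.4% and 97.9% of the genes that differed at least 2-fold between those, against 2.98% to 58.1% for the other 16 libraries. Many results on these groups are therefore also given without library 3. The sum of 9 hepatocyte genes, such as Alb, was 34548 CPM in library 3 of young CCR2+ CRMs, 12310 in library 3 of HFD CCR2+ CRMs and 2729 in library 2 of young CCR2- CRMs, against 49.5 to 902 in the other 15. Macrophage genes (10 genes, none at 0 counts in any library) summed to 23763 to 121694 CPM. Several lists differed without overlap between young and aged CCR2- CRMs, where C4b, C2, Serping1 and Cfb also did. The macrophage sum was 42175 to 60467 CPM in young and 23763 to 37136 CPM in aged libraries, and Ccr2, Timd4, Lyve1 and Folr2 together 1530 to 2138 and 275 to 1160 CPM. The dendritic cell list (5 genes) was at 114 to 218 and 28.1 to 48.8 CPM and the cardiomyocyte list (6 genes) at 85.8 to 139 and 9.19 to 15.3 CPM, and adipocyte and mesothelial genes were also lower, at 13.3 CPM or less. The part of these shifts in the results below was not tested. Ccr2 was at 2.41 to 3.87 CPM in young CCR2- CRMs, 6.79 to 28.9 in HFD CCR2- CRMs and 31.2 to 98.7 in aged CCR2- CRMs, and at 85.6 to 345 in the CCR2+ libraries.

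Properdin stood far above the other 8 genes. Per kilobase of exon, the median over 18 libraries was 326 CPM for Cfp, 12.2 for Cfb, 7.52 for Cr1l, 3.11 for Serping1, 0.954 for C4b, 0.202 for Cd55, 0.0626 for C2, 0.0515 for C6 and 0.0227 for Cd59a. Cfp exceeded Cfb per kilobase in 17 libraries, the exception being library 1 of aged CCR2+ CRMs. Below it the order was loose: Cfb exceeded Cr1l in 10 libraries, Cr1l exceeded Serping1 in 13, Serping1 exceeded C4b in 11, C2 exceeded C6 in 9 and C6 exceeded Cd59a in 10 of 18. The order of these neighbours thus varied between libraries of unlike groups, and it was not tested. C4b exceeded Cd55 in 15 libraries and Cd55 exceeded C2 in 14. Several of the genes, such as C2, C6 and Cd55, were high in a few libraries and near 0 in the rest, also within a group.

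**Figure D1:**
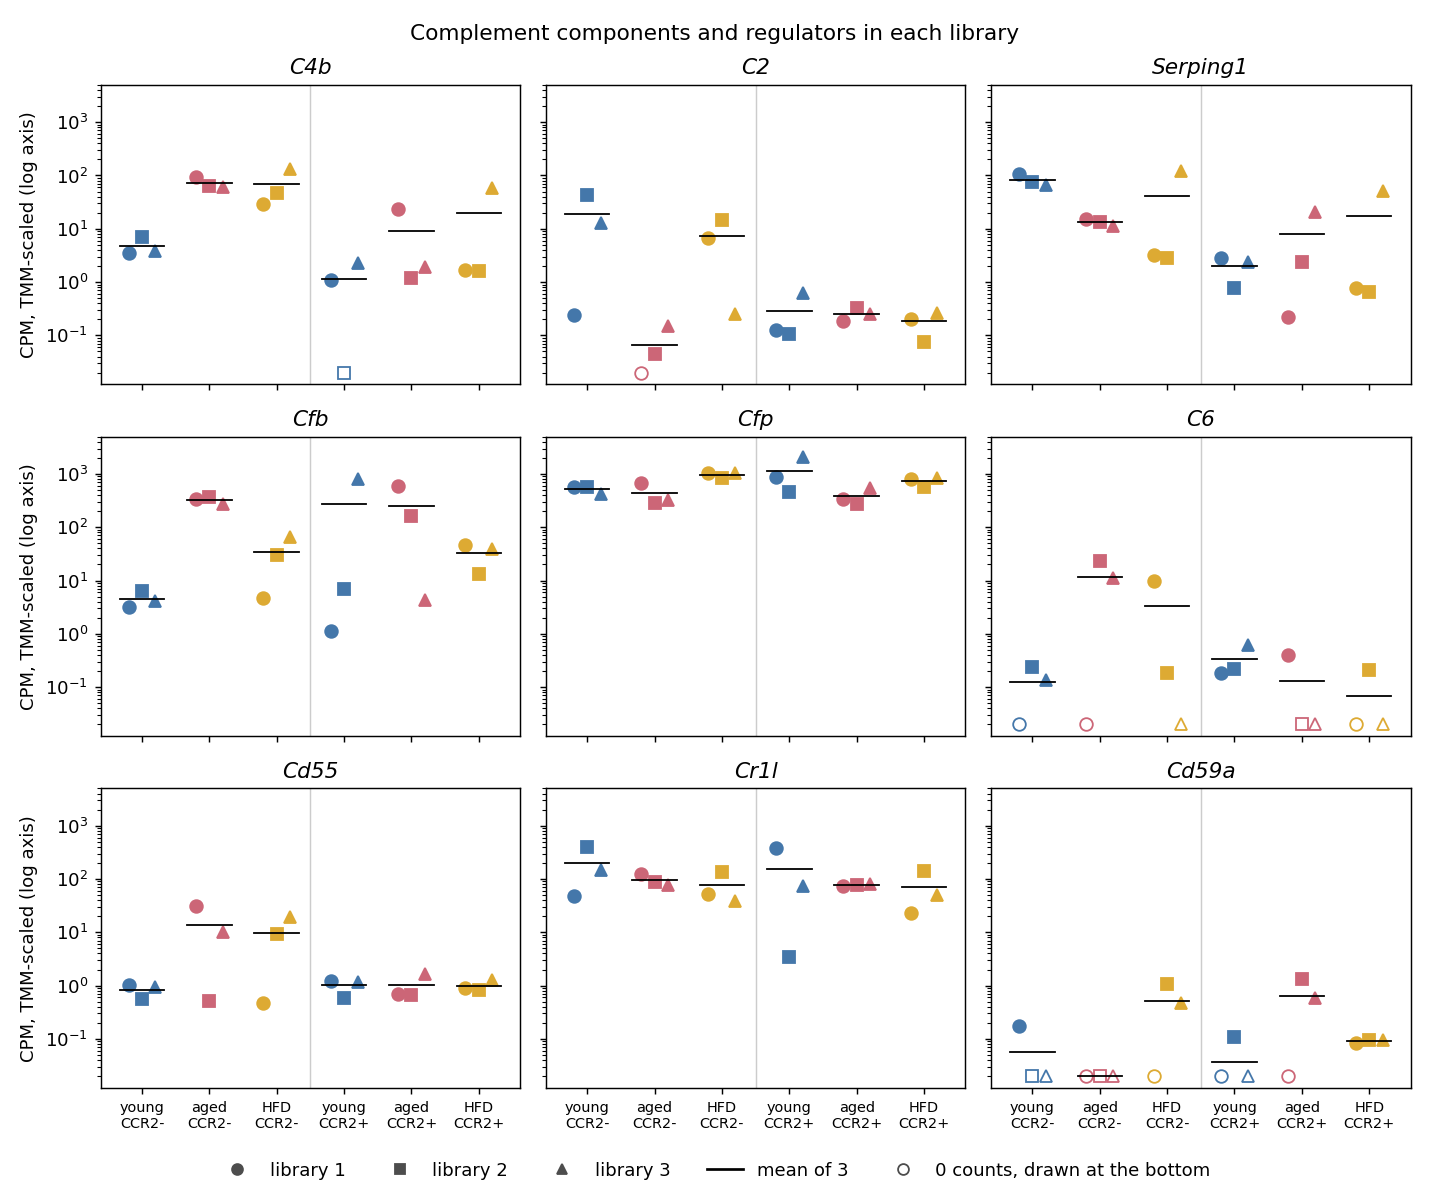
TMM-scaled CPM (log axis) of the 9 genes in each of 18 libraries, by group, with symbols for library number, bars for the mean of 3 and open symbols for 0 counts. Cfp stays between 276 and 2046 CPM throughout, while each of the other genes spans more than an order of magnitude within at least 1 group.

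C4b, the precursor of the C4 fragment that binds targets in the classical and lectin pathways, was low in young CRMs and higher in part of the aged and HFD libraries. In CCR2- CRMs it was at 3.44, 6.96 and 3.91 CPM in young mice, 92.4, 64.7 and 61.2 CPM in aged mice and 29.2, 47.3 and 133 CPM in HFD mice. Every aged and every HFD library was above every young one. Group means were 4.77 ± 1.91, 72.8 ± 17.1 and 69.8 ± 55.4 CPM (SD, n = 3). The log2 fold change was 3.93 (SE 1.67) in aged mice, with an adjusted p of 0.180 in edgeR, and 3.87 (SE 1.72) in HFD mice, with an adjusted p of 0.238 in edgeR, so neither passed. Both comparisons share the same young libraries. In CCR2+ CRMs C4b was at 1.11, 0 and 2.31 CPM in young mice, 23.6, 1.18 and 1.90 CPM in aged mice and 1.69, 1.63 and 57.1 CPM in HFD mice. A single library carried the level in each of the latter groups, and the HFD one was the library with 12310 CPM of hepatocyte genes. In this subset C4b differed by a log2 fold change of 2.97 (SE 1.61) for aged and 4.15 (SE 1.74) for HFD mice, the latter 1.58 (SE 1.64) without the 2 CCR2+ libraries richest in hepatocyte genes. The aged value was 0.45 without aged library 1. Over both subsets the aged libraries were higher by a log2 fold change of 3.45 (SE 1.18), with an adjusted p of 0.109 in edgeR and 0.0296 in DESeq2 (log2 fold change 2.76). Fits over both subsets took the CCR2- and CCR2+ libraries as separate samples. Where both came from the same hearts, the p-values of such fits could be too small. The copy C4a of C4b never passed 2.31 CPM.

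C2, the protease partner of C4b, was detected mainly in CCR2- CRMs of young and HFD mice. It was at 0.237, 43.9 and 12.7 CPM in young CCR2- CRMs, 6.77, 14.8 and 0.254 CPM in HFD CCR2- CRMs and 0, 0.0448 and 0.149 CPM in aged CCR2- CRMs, the last from 0 to 12 counts. All aged libraries were below all young ones, and young library 1 was close to them. The highest value fell in the young CCR2- library with 2729 CPM of hepatocyte genes. Against young mice the aged log2 fold change was -8.11 (SE 2.10), with an adjusted p of 0.0966 in edgeR and 5.19e-07 in DESeq2, and its size depends on how near-zero counts were treated. Without library 3 of both groups it was -9.74 (SE 3.02), with an adjusted p of 0.407 in edgeR. All 9 CCR2+ libraries were between 0.0747 and 0.616 CPM. Cfb and C2, which neighbour each other, thus took opposite places in aged CCR2- CRMs, one above and the other below every young library.

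Serping1 separated the subsets in young mice. It was at 108, 76.9 and 65.2 CPM in young CCR2- CRMs and at 2.80, 0.757 and 2.36 CPM in young CCR2+ CRMs, and these groups did not overlap. Aged CCR2- CRMs held 15.3, 13.2 and 11.3 CPM, all below every young CCR2- library and a mean of 13.3 ± 2.03 against 83.3 ± 22.0 CPM (SD, n = 3). The log2 fold change was -2.65 (SE 1.33), with an adjusted p of 0.256 in edgeR and 0.0610 in DESeq2. HFD CCR2- CRMs were split, at 3.16, 2.89 and 119 CPM. In CCR2+ CRMs the values were 0.225, 2.39 and 20.9 CPM in aged mice and 0.783, 0.654 and 51.7 CPM in HFD mice. The aged log2 fold change of 1.99 (SE 1.31) in CCR2+ CRMs was -0.59 without library 3. In HFD CCR2+ CRMs the highest value was again in the library rich in hepatocyte genes, and the log2 fold change against young mice went from 3.17 (SE 1.78) to -1.31 (SE 1.76) without it and its young counterpart. Serping1 is a gene of many stromal cells as well as liver, and the fibroblast list (7 genes) reached 637 CPM in the HFD CCR2- library with 119 CPM, against 43.5 and 45.7 CPM in the other two. In young CCR2- CRMs that list was at 613, 28.4 and 271 CPM, with its lowest value in the library of 76.9 CPM of Serping1. The mural cell list (5 genes) was at 10.9 to 729 CPM in young and 0.658 to 37.6 CPM in aged CCR2- CRMs. The part of these lists in these values was not tested.

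Cfb, the serine protease of the alternative pathway, gave the clearest split between young and aged CCR2- CRMs. It was at 3.19, 6.32 and 4.09 CPM in young mice and at 339.7, 362 and 278 CPM in aged mice, and the groups were far apart. Means were 4.53 ± 1.61 and 327 ± 43.6 CPM (SD, n = 3), a ratio of 72.1. HFD CCR2- CRMs ranged from young values to beyond them, at 4.80, 30.1 and 66.4 CPM. For aged mice the log2 fold change was 6.17 (SE 2.07), with an adjusted p of 0.116 in edgeR and 0.00353 in DESeq2, and it was 6.21 (SE 2.76, adjusted p of 0.407 in edgeR) without library 3 of both groups. For HFD mice it was 2.90 (SE 1.64), with an adjusted p of 0.342 in edgeR. The HFD value was 2.83 (SE 2.04, adjusted p of 0.568 in edgeR) without library 3 of young and aged CCR2- CRMs in the fit. The 5 monocyte genes summed to 548 to 744 CPM in young and 1333 to 2395 CPM in aged CCR2- CRMs, so they and Ccr2 were higher in the group with more Cfb. In HFD CCR2- CRMs the monocyte sum was 542, 339 and 180 CPM in libraries 1 to 3, the reverse of the order of Cfb and below every young library. The part of monocyte genes in the Cfb levels was not tested.

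In CCR2+ CRMs Cfb had no stable level. It was at 1.11, 7.01 and 805 CPM in young mice, 590.1, 162 and 4.32 CPM in aged mice and 46.6, 13.2 and 39.0 CPM in HFD mice. The 805 CPM came from the library with 34548 CPM of hepatocyte genes, and the 590.1 CPM of aged library 1 from a library with 53.0 CPM of them. The part of hepatocyte genes in Cfb was not tested. For aged mice the log2 fold change was -0.10 (SE 1.65) with all libraries and 5.96 (SE 1.65) without library 3 of young CCR2+ CRMs, with an adjusted p of 0.141 in edgeR. Over both subsets it went from 3.03 (SE 2.13, adjusted p of 0.470 in edgeR) to 6.08 (SE 1.04, adjusted p of 0.0235 in edgeR) without that library, an alternative chosen after seeing the data and the same as leaving out that replicate. For HFD mice it was -3.04 (SE 1.65) with all libraries and 2.88 (SE 1.49) without library 3 of young and HFD CCR2+ CRMs, with adjusted p-values of 0.260 and 0.323 in edgeR.

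Cfp, the only known positive regulator of the alternative pathway, was high in every library. It was at 564, 566 and 412 CPM in young, 689.9, 288 and 328 CPM in aged and 1034, 829 and 1041 CPM in HFD CCR2- CRMs. All HFD libraries were above all young ones, with means of 968 ± 120.3 and 514 ± 88.3 CPM (SD, n = 3), whereas aged and young libraries overlapped. The log2 fold change was 0.91 (SE 0.49) for HFD and -0.24 (SE 0.57) for aged mice, with adjusted p-values of 0.322 and 0.863 in edgeR. In CCR2+ CRMs Cfp was at 879.9, 453 and 2046 CPM in young, 335, 276 and 546 CPM in aged and 797, 564 and 829 CPM in HFD mice. The highest value was in the young library rich in hepatocyte genes, which also had the lowest TMM factor of 0.427 and the highest macrophage sum. For aged mice the log2 fold change was -1.55 (SE 0.59), with an adjusted p of 0.135 in edgeR and 0.0474 in DESeq2, and it was -0.79 (SE 0.51) without that library.

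At the end of the chain, C6 and its membrane brake Cd59a were close to absent. C6 was at or under 0.616 CPM in 15 libraries, and only library 1 of HFD CCR2- CRMs (9.74 CPM) and libraries 2 and 3 of aged CCR2- CRMs (23.3 and 11.2 CPM) held more, while library 1 of aged CCR2- CRMs had 0 counts. The 2 aged libraries with C6 had hepatocyte sums of 517 and 254 CPM and 13.3 and 5.54 CPM of Cfi, against 87.3 and 0.219 CPM in the library without it. Library 1 of HFD CCR2- CRMs, with C6 at 9.74 CPM, had a hepatocyte sum of 49.5 CPM. The libraries with sums of 34548, 12310 and 2729 CPM held C6 at 0.616, 0 and 0.237 CPM. The part of hepatocyte genes in C6 was not tested. The aged and young CCR2- libraries overlapped at 0, and the log2 fold change of 6.51 (SE 2.64) had an adjusted p of 0.162 in edgeR and 0.0188 in DESeq2. Among the other terminal components, C8g alone reached 10 CPM, in library 3 of young CCR2+ CRMs (18.3 CPM) and of HFD CCR2+ CRMs (112 CPM), the libraries rich in hepatocyte genes. Cd59a had 0 counts in 9 libraries and 77 counts at most. It was at 1.07 and 0.468 CPM in libraries 2 and 3 of HFD CCR2- CRMs and at 1.32 and 0.579 CPM in libraries 2 and 3 of aged CCR2+ CRMs, and at or under 0.172 CPM elsewhere. All 3 aged CCR2- libraries were at 0 counts, which allows up to 0.0373 to 0.0598 CPM. Cd59a was too low to be tested with age and had adjusted p-values of 0.479 and 0.822 in edgeR for HFD in CCR2- and CCR2+ CRMs.

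Cd55 was near 1 CPM in all but 4 libraries. It was at 30.6, 0.508 and 10.3 CPM in aged and 0.465, 9.39 and 19.3 CPM in HFD CCR2- CRMs, against 1.03, 0.568 and 0.926 CPM in young CCR2- CRMs and 0.595 to 1.67 CPM in the 9 CCR2+ libraries. Aged and HFD CCR2- groups each overlapped the young group through 1 low library. The log2 fold change was 4.03 (SE 1.41) for aged and 3.52 (SE 1.44) for HFD mice, with adjusted p-values of 0.122 and 0.215 in edgeR and 0.0115 and 0.0462 in DESeq2. Cr1l was expressed in every library and differed most within the young groups. It was at 47.9, 403 and 145 CPM in young CCR2- CRMs and 379, 3.44 and 74.5 CPM in young CCR2+ CRMs. The aged libraries lay close together, at 124, 86.9 and 78.7 CPM in CCR2- and 72.5, 76.8 and 79.8 CPM in CCR2+ CRMs, and HFD libraries at 51.9, 137 and 38.8 CPM and 22.6, 140.1 and 50.8 CPM. The 4 log2 fold changes against young mice were -0.99 to -1.39 with SEs of 1.10 to 1.16, and adjusted p-values were 0.524 to 0.673 in edgeR. Without library 2 of young CCR2- CRMs the aged value was 0.0042, and without library 1 of young CCR2+ CRMs the aged and HFD values were 0.97 and 0.87, so 3 of the 4 directions turned with a single young library left out. The HFD value in CCR2- CRMs stayed negative, between -2.13 and -0.34, with each library left out in turn. The close copies Cd55b and Cd59b and the receptor Cr2 reached at most 0.331, 7.34 and 4.11 CPM.

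**Figure D2:**
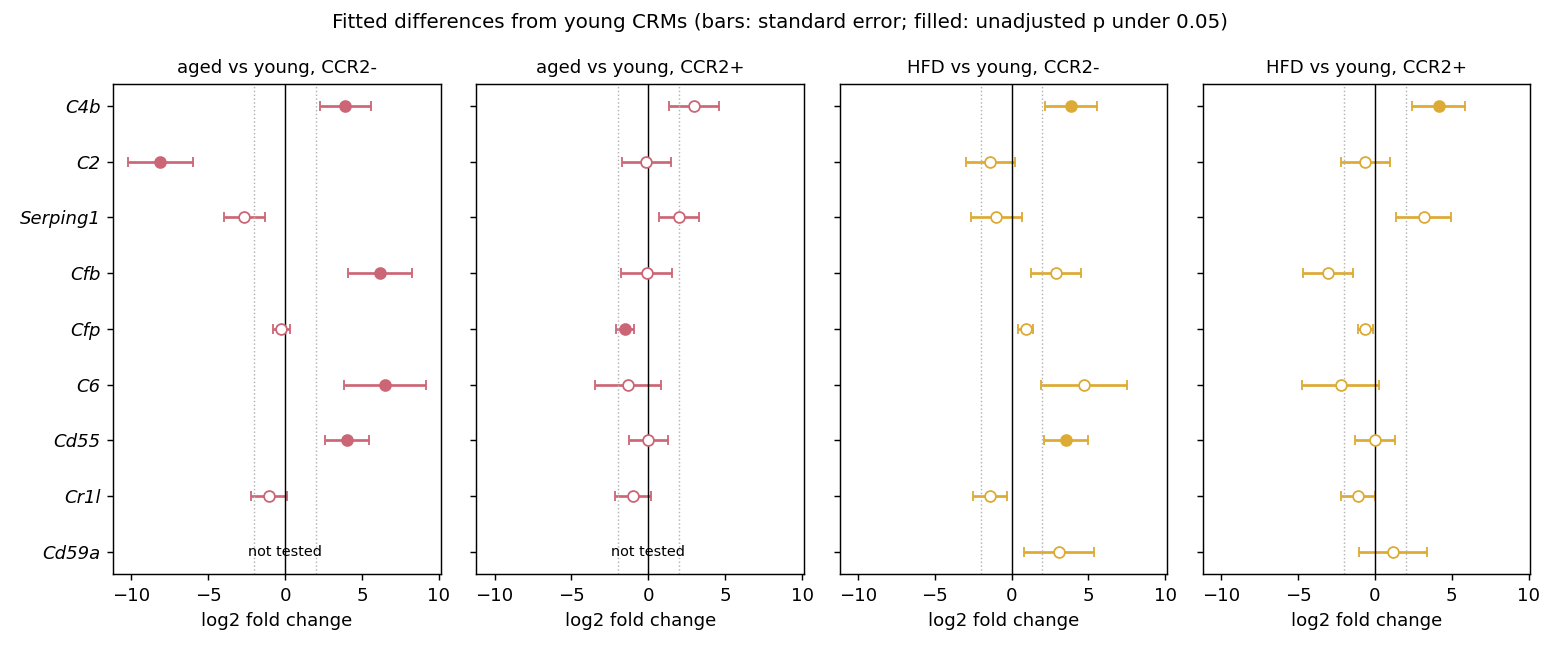
Log2 fold changes of aged or HFD against young CRMs in each subset for the 9 genes, with SEs as bars, filled points where the unadjusted p is under 0.05 and dotted lines at the threshold of 2. The 8 tested genes in aged CCR2- CRMs range from -8.11 for C2 to 6.51 for C6, and none passes the adjusted threshold in any panel.

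In the edgeR test 0 of the 9 genes passed in any of the 8 comparisons, with Cd59a tested for diet and subset only. The common dispersion, edgeR's estimate of spread between libraries beyond counting error, was 1.38 in the young and aged libraries. With that spread and 3 libraries per group, a gene not called is not shown to be unchanged. For aged against young CCR2- CRMs, 5 of the 8 tested genes (Cfb, C4b, C6 and Cd55 higher, C2 lower) had an unadjusted p under 0.05, where 23.1% of all 14246 genes did, and 4 genes (Cfb and C4b higher, C2 and Serping1 lower) did not overlap between the groups, where 29.8% of all genes did not. Of all genes 0 were called in this comparison (0%), with 3291 at an unadjusted p under 0.05, while DESeq2 called 21.6% of genes and 4 of the 7 members to which it gave an adjusted p. Of the 8 log2 fold changes 4 were positive and 4 negative, so that their median of 1.85, beside -0.20 over all genes, lies in the gap between -0.24 for Cfp and 3.93 for C4b and describes no common shift. All 34 tested complement genes had a median of -0.27. The 9 genes were chosen with earlier results of these data known. Their counts beside the shares of all genes are therefore no test of an excess. Without library 3 of both groups, log2 fold changes were 3.92 for C4b (SE 2.38), 6.60 for C6, 4.28 for Cd55 and -2.70 for Serping1 (SE 1.93), with adjusted p-values of 0.407 to 0.557 in edgeR. In that fit 2 of 9 tested genes had an unadjusted p under 0.05, beside 1724 of 14718 genes. In CCR2+ CRMs 1 of 8 (Cfp, lower) had an unadjusted p under 0.05, beside 26.5% of all genes, none was free of overlap, beside 19.2%, and the median was -0.12, beside -0.12. DESeq2 called 1 of 7, beside 23% of genes.

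Over both subsets, 1 of 8 genes (C4b) had an unadjusted p under 0.05 with age, beside 20.3% of all genes and 3.11% called by edgeR. DESeq2 called C4b and C2, beside 21.7% of genes. The effect of age differed between the subsets at an unadjusted p under 0.05 for 5 of 8 genes, beside 21.8% of all genes. These were Cfb (log2 difference -6.28, SE 2.53), C2 (7.98, SE 2.47), C6 (-7.82, SE 3.33), Cd55 (-4.02, SE 1.83) and Serping1 (4.64, SE 1.87), with CCR2+ minus CCR2- as the direction. Their adjusted p-values were 0.120 to 0.223 in edgeR, and 0% of genes were called. DESeq2 called Cfb, C2 and C6, beside 15.4% of genes. As the genes were chosen with earlier results of these data known, such counts are no test of an excess. Without library 3 of young and aged CCR2- CRMs, 2 of 9 genes had an unadjusted p under 0.05, beside 1948 of 14718 genes. The difference was then -6.31 (SE 3.13) for Cfb and 9.60 (SE 3.25) for C2, with adjusted p-values of 0.399 and 0.361 in edgeR. The Cfb difference was -0.21 (SE 1.67) without library 3 of young CCR2+ CRMs, that of Serping1 was 2.06 without library 3 of aged CCR2+ CRMs, that of Cd55 was -2.66 without library 1 of aged CCR2- CRMs and that of C6 was -13.57 without library 1 of aged CCR2+ CRMs.

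For HFD against young mice, 2 of 9 genes (C4b and Cd55, higher) had an unadjusted p under 0.05 in CCR2- CRMs, beside 18.7% of 15403 genes with 0% called, and 2 (C4b and Cfp, both higher) did not overlap, beside 21.4%. DESeq2 called Cd55 alone among the 8 members with an adjusted p, beside 14.9% of genes. Without library 3 of young and aged CCR2- CRMs in the same fit, the log2 fold change was 3.75 for C4b, 0.78 for Cfp and 3.60 for Cd55. There 0 of 9 genes had an unadjusted p under 0.05 in CCR2- CRMs, beside 1695 of 16337 genes. In CCR2+ CRMs 1 of 9 (C4b, higher) had an unadjusted p under 0.05, beside 24.7%, none was free of overlap, beside 16.7%, and edgeR called 0.123% of all genes. DESeq2 called Cfb as lower, beside 22.3% of genes. In edgeR the log2 fold change of Cfb was -3.04 with all libraries and 3.02 without library 3 of young CCR2+ CRMs. DESeq2 was not refitted without that library. The effect of diet differed between subsets at an unadjusted p under 0.05 for Cfb (log2 difference -5.94, SE 2.32) and Cfp (-1.54, SE 0.70), beside 20.4% of genes, and edgeR called 0.0195% of all genes. DESeq2 called Cfb, beside 13.7% of genes. The Cfb difference was -0.02 (SE 1.81) and the Cfp difference -0.88 (SE 0.64) without library 3 of young and HFD CCR2+ CRMs.

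Across the 3 conditions, C4b (log2 difference -2.30, SE 0.92), C2 (-4.10, SE 1.86) and Cd55 (-2.42, SE 1.02) were lower in CCR2+ than in CCR2- CRMs at an unadjusted p under 0.05, beside 11% of all genes, with adjusted p-values of 0.356 to 0.427 in edgeR. Serping1 followed at -2.23 (SE 1.21), and at -3.89 (SE 1.49) without library 3 of young and HFD CCR2+ CRMs. EdgeR called 0.227% of all genes and DESeq2 9.12%, among them C2 and C6. Cfp and Cr1l differed by 0.18 (SE 0.32) and -0.27 (SE 0.60). Without library 3 of young and aged CCR2- CRMs, the difference was -2.34 for C4b, -4.65 for C2 and -2.72 for Cd55. Adjusted p-values of these were 0.543 to 0.561 in edgeR.

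Among the other 45 complement genes, only C1qa, C1qb, C1qc, C3ar1, C5ar1 and Itgb2 were at 10 CPM or more in all 18 libraries. C1qb, a chain of the C1q recognition protein, had a median of 7325 CPM, and its CPM per kilobase was above that of Cfp at the median (6733 against 326). EdgeR called 1 of the 26 tested in aged against young CRMs over both subsets, beside 3.11% of all genes. The gene was Itgax, a chain of complement receptor 4, with a log2 fold change of 5.35 (SE 1.08). Its adjusted p was 0.0255 in edgeR. Itgax was at 79.2, 86.3 and 69.1 CPM in aged and 0.603, 0.781 and 1.58 CPM in young CCR2- CRMs, and at 8.76, 49.7 and 1.14 CPM in aged and 0.618, 0.568 and 1.64 CPM in young CCR2+ CRMs, where 1 aged library lay among the young ones. Its adjusted p in edgeR was 0.182 without library 3 of young and aged CCR2- CRMs and 0.0722 with a replicate block, and 6 of the 12 fits with 1 library left out lost the call, with adjusted p-values up to 0.0820. Between CCR2+ and CCR2- CRMs of the 3 conditions, edgeR called 2 of 31 tested, both lower in CCR2+ CRMs, beside 0.227% of all genes. They were Fcna, a lectin that starts the lectin pathway (-3.92, SE 0.75), and Vsig4, a macrophage receptor for C3b (-4.51, SE 0.84). The adjusted p-values were 0.0282 for both in edgeR. Without library 3 of young and aged CCR2- CRMs these were 0.0991 for Fcna and 0.0731 for Vsig4, and with 1 library left out at a time 9 and 8 of 18 fits lost the call, while both kept their direction. No other gene of the list was called in any of the 8 comparisons. By unadjusted p under 0.05, 6 of the 26 tested were higher and 5 lower in aged CCR2- CRMs, beside 23.1% of all genes in either direction, and 3 were higher and 6 lower in aged CCR2+ CRMs, beside 26.5%. Of 31 tested with diet, 8 were higher and 3 lower in HFD CCR2- CRMs, beside 18.7%, and 8 were higher and 2 lower in HFD CCR2+ CRMs, beside 24.7%. C3, the substrate of both C3-cleaving enzymes, ranged from 1.25 to 923 CPM with its top in library 3 of young CCR2+ CRMs. Cfd, the protease that activates factor B, was at 253 and 100.7 CPM in libraries 1 and 3 of young CCR2- CRMs and under 1 CPM in the other 16.

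**Figure D3:**
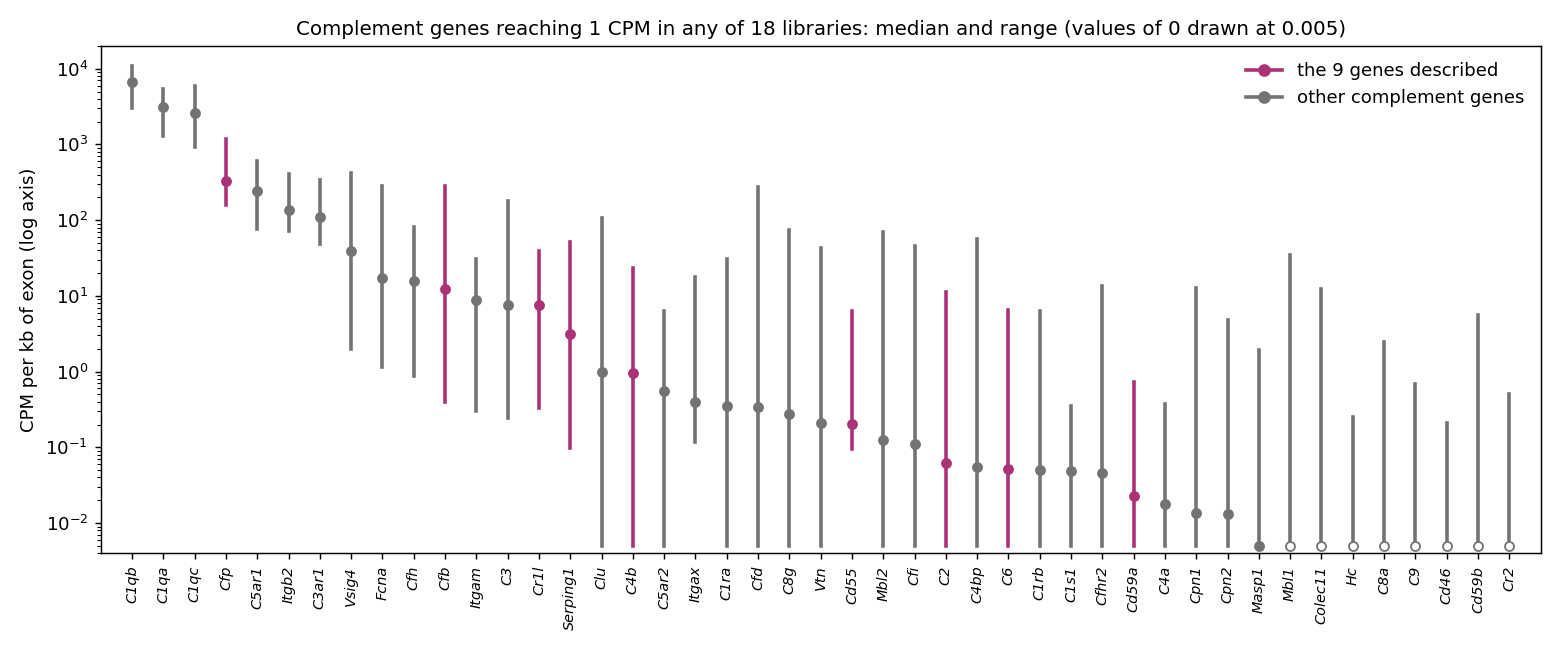
Median (point) and range (line) over 18 libraries of CPM per kilobase of exon (log axis) for the 45 complement genes that reached 1 CPM in any library, the 9 described genes in purple and others in grey. Cfp sits next to the C1q chains, at a median of 326, while Cd59a is at 0.0227.

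The list of 9 hepatocyte genes was added after seeing the data. Its sum was 197, 2729 and 902 CPM in young CCR2- CRMs and 49.5, 90.5 and 72.8 CPM in HFD CCR2- CRMs, without overlap, and the top C4b (133 CPM) and Serping1 (119 CPM) came with a sum of 72.8 CPM. Library 3 of young CCR2+ CRMs held the highest Cfb (805 CPM), C3 (923 CPM) and C4bp, an inhibitor that binds C4b (384 CPM), and library 3 of HFD CCR2+ CRMs held the highest Cfi, the protease that cuts C3b (99.9 CPM), Mbl2, a lectin (76.6 CPM), Vtn, which blocks the terminal complex (86.3 CPM) and C8g (112 CPM). The aged CCR2- libraries, with Cfb at 278 to 362 CPM, had hepatocyte sums of 87.3 to 517 CPM, with Cfb at 3.19 to 6.32 CPM in the young CCR2- libraries. The part of hepatocyte genes in these levels was not tested.

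**Figure D4:**
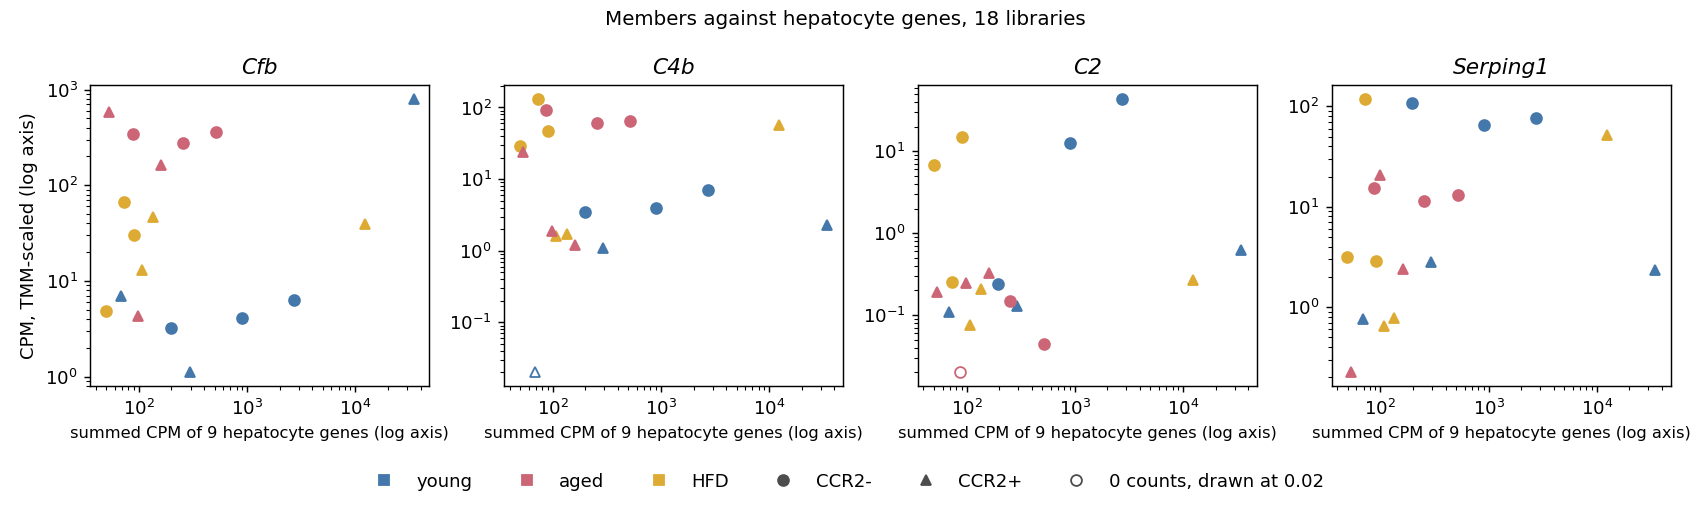
CPM of Cfb, C4b, C2 and Serping1 against the summed CPM of 9 hepatocyte genes (both log axes) in 18 libraries, coloured by condition, with circles for CCR2- and triangles for CCR2+. The libraries at 12310 and 34548 CPM stand to the right, and the aged CCR2- libraries have high Cfb at sums of 87.3 to 517 CPM.

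By Pearson correlation of log2(CPM + 1) over 18 libraries, the genes most like Cfb were A530064D06Rik (r = 0.84), Sp140 (0.83) and Tars (0.83), those most like C4b were Zdhhc16 (0.93), Dnaja3 (0.87) and Clp1 (0.86), and that most like Cfp was Gabarap (0.91). For Cr1l and Serping1 the highest values were 0.87 (Eif4a-ps4) and 0.82 (Tgfa). For C2, C6, Cd55 and Cd59a they were 0.97 to 0.99 at the top, with genes that also peaked in a few libraries. Among the 9 genes the highest r was 0.64, between C4b and Cd55, and between the neighbours Cfb and C2 it was -0.36. All points share depth and library effects.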

How the data were processed

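RNA was measured in 18 libraries, 3 in each of 6 groups assigned from the sample labels. Total RNA of sorted cells was turned into SMART-Seq v4 libraries. Per the methods, reads were checked with FastQC, trimmed with Cutadapt, mapped with HISAT2 and assembled with StringTie. The methods name release 101 of the mouse reference. Tool versions, strand setting and treatment of shared reads are not given in the sources used here. The authors deposited raw counts per gene for 55401 Ensembl genes, of which 55141 were given a symbol from GENCODE M21. All columns were mapped to a sample.

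Counts were scaled by TMM factors over all 18 libraries (edgeR 4.0.16, R 4.3.3). The quasi-likelihood test of edgeR followed filterByExpr, in 12 libraries for age (14246 genes) and in 18 for diet and subset (15403 genes). A gene was called where its Benjamini-Hochberg adjusted p was under 0.05 and it differed by more than 2 on the log2 scale. p-values are two-sided. The scripts were tested on simulated data. Alternatives were DESeq2 1.42.0, RLE factors, library size alone, no filter, all 18 libraries in the aging fit, a replicate block, libraries left out singly and, for young and aged CCR2- CRMs, library 3 left out together. Leaving out library 3 of young and HFD CCR2+ CRMs, the hepatocyte list, and the refits of called genes that are not among the 9 were chosen after seeing the data. Promoters came from RefSeq, and CPM per kilobase used the union of exons. Figures were drawn with matplotlib 3.10.9.

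The 9 genes and the gene lists were chosen with earlier results of these data known. Named were all 9 genes in every comparison, their near copies and overlapping neighbours, at most 5 called genes of the other complement genes per comparison and the genes most alike each member. Other complement genes named with levels (C3, C4bp, Cfi, Mbl2, Vtn, C8g and Cfd) were chosen after their values were seen. Library totals of 39753911 to 56541280 counts make counting error small beside the spread of libraries except near 0. Intervals and limits at 0 counts cover counting error only.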

Additional observations from a re-analysis of the deposited data

How the results depend on the processing

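In edgeR 0 of the 9 genes were called in each of the 8 comparisons, and depth limits Cd59a, C6 and, outside young and HFD CCR2- CRMs, C2. Of 1523 refitted fold changes of the 9 genes, 1419 kept their direction and their side of the threshold, 84 changed sign and 20 passed the threshold. Of 108 group levels with another scaling, 96 stayed within 1 SD. For values that moved the cause was not tested.

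With DESeq2, the genes called numbered 2694 for aged CCR2-, 2553 for aged CCR2+, 2523 for age over both subsets, 1834 for the age by subset difference, 1897 for HFD CCR2-, 2713 for HFD CCR2+, 1780 for the diet by subset difference and 1088 for CCR2+ against CCR2-. The members called there numbered 4 for aged CCR2-, 1 for aged CCR2+, 2 for age over both subsets, 3 for the age by subset difference, 1 for HFD CCR2-, 1 for HFD CCR2+, 1 for the diet by subset difference and 2 for CCR2+ against CCR2-. The log2 values that changed sign there were Cd55 -0.73 in aged CCR2+, Cr1l -0.27 in the age by subset difference, C4b -0.089 in the diet by subset difference and Cr1l 0.027 in CCR2+ against CCR2-. With RLE factors, the genes called numbered 197 for age over both subsets, 0 for HFD CCR2+, 0 for the diet by subset difference and 23 for CCR2+ against CCR2-. The log2 values that changed sign there were Cd55 -0.82 in aged CCR2+, Cr1l -0.32 in the age by subset difference, C4b -0.088 in the diet by subset difference and Cr1l 0.027 in CCR2+ against CCR2-. With library size alone, the genes called numbered 2 for aged CCR2-, 316 for aged CCR2+, 879 for age over both subsets, 43 for the age by subset difference, 183 for HFD CCR2+ and 25 for the diet by subset difference. The members called there numbered 1 for age over both subsets. The log2 values that changed sign there were Cfb 1.30 and C2 1.10 in aged CCR2+, Serping1 0.31 in age over both subsets, C2 0.19, Cfp 0.16 and Cd55 0.59 in HFD CCR2+ and Cfp -0.14 in CCR2+ against CCR2-. Without an expression filter, the genes called numbered 6 for aged CCR2-, 432 for aged CCR2+, 614 for the age by subset difference, 737 for HFD CCR2+ and 614 for the diet by subset difference. The members called there numbered 1 for the age by subset difference and 1 for the diet by subset difference. With all 18 libraries in the aging fit, the genes called numbered 2 for aged CCR2- and 14 for the age by subset difference. The groups' mean log2 TMM factors were above those of young libraries by 0.28 in aged CCR2-, 0.95 in aged CCR2+, 0.17 in HFD CCR2- and 0.59 in HFD CCR2+. Single genes could move by other amounts with library size alone, as Cfb in aged CCR2+ went from -0.10 to 1.30. The member called with library size alone was C4b, and the one called without a filter was Cfb in both differences.

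Without library 3 of young and HFD CCR2+ CRMs, the genes called numbered 222 for age over both subsets, 2 for HFD CCR2+, 6 for the diet by subset difference and 9 for CCR2+ against CCR2-. The members called there numbered 1 for age over both subsets. The log2 values that changed sign there were Cfb 5.96 and C2 1.09 in aged CCR2+, C4b 0.072 and Cr1l -0.28 in the age by subset difference, Cfb 2.88, C2 0.24, Cfp 0.031 and Serping1 -1.31 in HFD CCR2+, C4b -2.29 and Serping1 -0.31 in the diet by subset difference and Cfb -0.25 and Cfp -0.10 in CCR2+ against CCR2-. Without library 3 of young and aged CCR2- CRMs, the genes called numbered 0 for age over both subsets, 0 for HFD CCR2+, 0 for the diet by subset difference and 7 for CCR2+ against CCR2-. The log2 values that changed sign there were Serping1 0.32 in age over both subsets and Cd59a -0.67 in CCR2+ against CCR2-. The former alternative was chosen after seeing the data.

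Leaving out each replicate in turn, the genes called ranged from 0 to 3 for aged CCR2-, from 0 to 11 for aged CCR2+, from 0 to 430 for age over both subsets, from 0 to 5 for the age by subset difference, from 0 to 1 for HFD CCR2-, from 1 to 28 for HFD CCR2+, from 0 to 10 for the diet by subset difference and from 10 to 32 for CCR2+ against CCR2-. The members called ranged from 0 to 1 for age over both subsets. Log2 values that changed sign with some library left out ranged from -1.50 to 0.0042 for Cr1l in aged CCR2-. They ranged from -1.57 to 0.97 for Cr1l, from -0.56 to 0.25 for Cd55, from -1.71 to 5.96 for Cfb, from -0.52 to 1.09 for C2 and from -0.59 to 2.56 for Serping1 in aged CCR2+. They ranged from -1.71 to 0.29 for Serping1 in age over both subsets. They ranged from -0.998 to 2.01 for Cr1l and from -3.49 to 0.072 for C4b in the age by subset difference. They ranged from -2.43 to 0.17 for C2 and from -0.39 to 5.55 for C6 in HFD CCR2-. They ranged from -0.28 to 0.17 for Cd55, from -2.05 to 0.87 for Cr1l, from -3.62 to 3.02 for Cfb, from -1.003 to 0.61 for C2, from -1.002 to 0.13 for Cfp and from -1.45 to 3.73 for Serping1 in HFD CCR2+. They ranged from -3.32 to 1.31 for C4b, from -0.78 to 1.99 for C2, from -0.75 to 2.26 for Cr1l, from -6.52 to 2.17 for Cd59a, from -6.52 to 0.12 for Cfb and from -0.46 to 7.95 for Serping1 in the diet by subset difference. They ranged from -0.75 to 0.024 for Cr1l, from -0.59 to 3.13 for Cd59a, from -0.19 to 1.80 for Cfb and from -0.097 to 0.35 for Cfp in CCR2+ against CCR2-. The member called was Cfb without library 3 of young CCR2+ CRMs, and that library also turned Cfb in aged and HFD CCR2+ CRMs, library 3 of aged and of HFD CCR2+ CRMs turned Serping1, library 2 of young CCR2- CRMs turned C2 and library 1 of HFD CCR2- CRMs turned C6 in HFD CCR2- CRMs.

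Same-numbered libraries mostly did not deviate together, with correlations of -0.035 to 0.095 between subsets of a condition, -0.016 to 0.235 between aged and young and -0.026 to 0.056 between HFD and young libraries, so the numbers were not taken as pairs. The value of 0.235 was that of library 3 of young and of aged CCR2- CRMs, which both lay between libraries 1 and 2 of their group. With a replicate block, the genes called numbered 0 for age over both subsets, 3 for HFD CCR2+, 0 for the diet by subset difference and 11 for CCR2+ against CCR2-. The log2 values that changed sign there were Cfb 0.71 and C2 0.22 in aged CCR2+, Cd55 0.061 in HFD CCR2+, Cd59a 0.20 in the diet by subset difference and Cfb -0.18 in CCR2+ against CCR2-. The block called 0 of the 9 genes in any comparison. For CCR2+ against CCR2- it was the condition with the library number. Otherwise it was the library number alone, shared by mice of unlike conditions, which does not allow for subsets from the same heart.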
